A study of Homo sapiens with 18 samples.

Results

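The mitochondrial respiratory chain passes electrons from NADH and succinate to oxygen through complexes I to IV. Most of its subunits are encoded in the nucleus, made in the cytosol and imported, whereas a small set of hydrophobic subunits is encoded in mitochondrial DNA, so each complex except complex II is built from both genomes. Neurons and neuroblastoma cells depend on the chain for ATP, and some complex IV subunits exist as a common and a tissue-restricted isoform.

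The nuclear subunit genes were taken as the protein-coding Ensembl genes whose symbol begins with NDUF (followed by A, B, C, S or V and a number), SDH (A to D) or UQCR, or with COX and the number of a structural complex IV subunit. This gave 66 of the 57905 Ensembl genes in the count files. By function, 36 belong to complex I (NADH dehydrogenase), 4 to complex II (succinate dehydrogenase), 9 to complex III (ubiquinol-cytochrome c reductase) and 17 to complex IV (cytochrome c oxidase, with NDUFA4, which was named for complex I but is a complex IV subunit).

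RNA was sequenced from BE(2)-m17, an established human neuroblastoma cell line, in 18 libraries of 3 experiments. All cells carried the Sleeping Beauty transposon vector pSBbi-Hyg-APP, which holds APP. ABCC1-overexpressing cells also carried pSBbi-Pur-ABCC1(WT), which encodes the codon-optimized wild-type form of the drug and peptide exporter ABCC1, and empty vector control cells carried pSBbi-Pur without an insert. Each experiment had 3 libraries per line from wells plated with 14000000 cells and lysed on day 4. The first experiment used a TruSeq library kit, and the second and the third used a kit for stranded total RNA. The paper describes the repeats as cryopreserved and then newly transfected cells, and the labels do not say which number is which. Whether a line is a clone is not given in the sources used here. Within an experiment the effect of ABCC1 and of where the vector inserted cannot be told apart, and the newly transfected cells have insertions of their own. The paper plated each line weekly, and the labels do not give the week of a library. The p-values measure only the spread between libraries of a line, whether these are cultures of separate weeks or technical repeats.

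The libraries held 8866994 to 57937653 assigned read pairs, of which 28637 to 245827 fell on the 66 subunit genes. Exogenous ABCC1 had 51035 to 594404 counts in the ABCC1-overexpressing libraries and 0 to 15 in the control libraries. Of the 12 adrenergic neuroblastoma markers examined, 11 were at 14.2 CPM (counts scaled by the library total times its TMM factor) or more in every library. In the first experiment 7 of the 12 markers were lower in the ABCC1-overexpressing cells and 2 were higher, and in the third 2 were lower and 1 was higher (beside 0.767% and 2.03% of all genes). With library totals and no TMM factor, 4 were lower and 2 higher in the third (beside 2.54% and 2.25%). In the second 1 was then lower (beside 0.343%). The lists for other cells moved with the lines too. Of 7 fibroblast genes tested, 5 were higher and 1 was lower in the first experiment, and their list of 8 summed to 64.5 to 65.8 CPM per kb in the control and 79.1 to 81.7 in the ABCC1-overexpressing libraries. Of 2 muscle genes and 1 immune gene tested there, 1 each was lower. Among all genes 17.9% were higher and 19.7% lower. In the second experiment 1 of 6 muscle genes tested was lower (beside 0.458% of all genes). In the third 2 of 5 immune genes tested were lower (beside 0.767%). MYL2, a defining gene of heart muscle, was at 0 in every library of the first experiment. COL1A2, a collagen of fibroblasts, was at 0.0367 CPM or less there, while DCN, another fibroblast gene and one chosen after its values were seen, went from a mean of 38.4 to 76.4 CPM. The part of these differences in the results for the subunits was not tested. The 356 olfactory receptor genes, which should be silent here, gave a measure of background reads of 0.00296 to 0.00461 CPM per kb of exon in the first experiment, 0.141 to 0.671 in the second and 1.15 to 1.67 in the third.

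Nearly all of the 66 subunit genes were expressed. In the empty vector control cells of the first experiment, 59 had a mean of at least 1 CPM per kb, and the highest of them stood 167-fold above the lowest. Their counts summed to 4437 to 4501 CPM in those libraries, which is 0.440% to 0.448% of all assigned pairs. The 13 subunits encoded in mitochondrial DNA, 7 of complex I, 1 of complex III, 3 of complex IV and 2 of ATP synthase, together took 1.81% to 1.99% of the pairs in the same libraries. Replicates of a subunit gene varied beyond counting noise by a median of 5.32% in the first experiment, 14.8% in the second and 13.5% in the third, beside 5.46%, 17.8% and 14.3% for all protein-coding genes tested.

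Among complex I genes, the highest level per kb in the first experiment was that of NDUFB7, an accessory subunit of the membrane arm, at 208 CPM per kb (mean of 3 empty vector libraries), and the lowest that of NDUFV2, a core subunit that carries an iron-sulfur cluster, at 0.194 CPM per kb. In complex II, SDHB, the iron-sulfur subunit, was highest at 14.6 CPM per kb and SDHC, a membrane anchor, lowest at 8.44 CPM per kb. UQCRH, the hinge protein of complex III, was at 137 CPM per kb and its near copy UQCRHL at 1.93 CPM per kb. COX8A, a small membrane subunit, led complex IV at 202 CPM per kb, while COX6A2, COX7A1 and COX7B2 had no count in any of the 3 libraries. The 4 complex II genes therefore lay close together, and the other complexes spread over orders of magnitude on this scale. Exon length is the union of all annotated transcripts of a gene, so a gene with a long alternative exon has its level per kb understated.

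**Figure D1:**
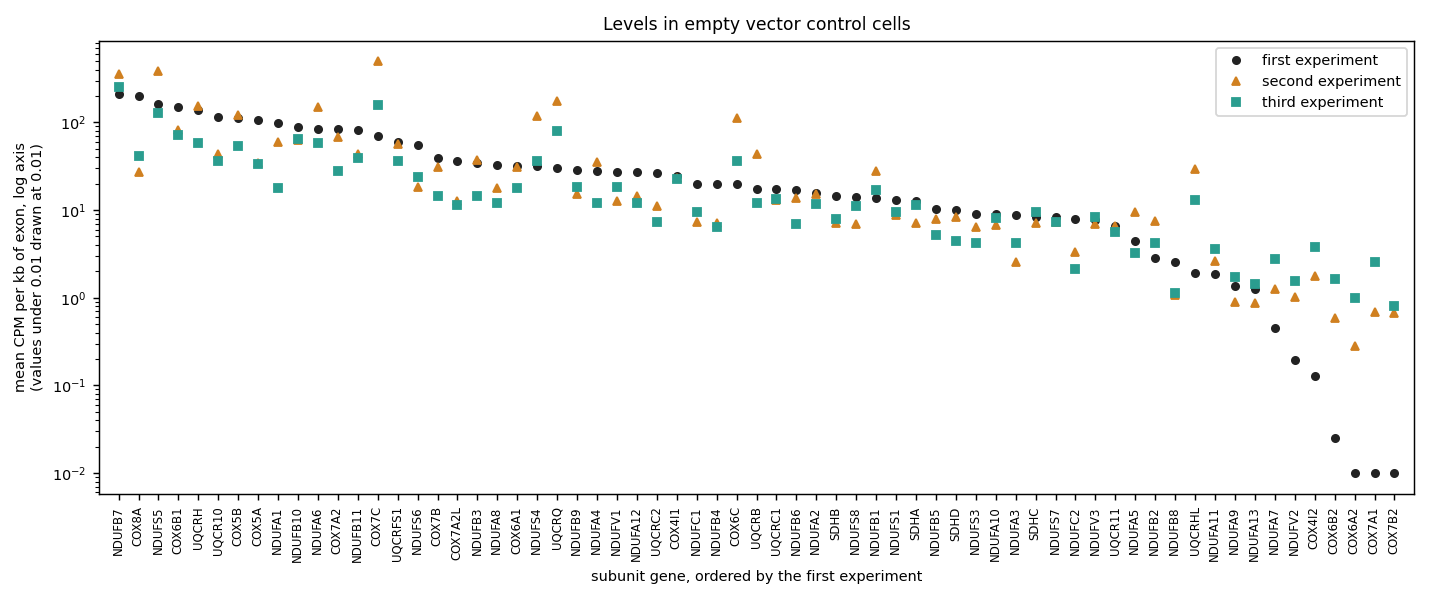
Mean CPM per kb of exon of 65 of the 66 subunit genes in the 3 empty vector control libraries of each experiment, on a log axis, with genes ordered by the first experiment. The 5 genes at the right, among them COX6A2, COX7A1 and COX7B2, are near 0 in the first experiment and higher in the repeats, and COX8A falls below its neighbours in the repeats while COX7C rises above them.

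Some low values belong to genes whose reads may not be counted in full. Read pairs that matched several places or lay on exons of several genes were not counted, 13 of the 66 genes share more than 20% of their exon bases with another gene, and 36 have named pseudogenes, 135 rows in all. NDUFV2 had 25, 17 and 12 counts in the first experiment without exogenous ABCC1, and its pseudogene row had 229 counts over the 6 libraries beside 117 for NDUFV2 itself. NDUFB8, which shares 59.95% of its exon bases with other genes, had 288, 180 and 212 counts, and NDUFA13, which shares 44.7%, had 180, 118 and 127. The levels of these genes are uncertain for that reason.

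Each complex IV subunit with a tissue-restricted isoform was represented by its common form. COX4I1 had 114, 117 and 118 CPM in the control libraries of the first experiment, and COX4I2, the form of lung and oxygen-sensing cells, 3, 2 and 4 counts. COX6A1 was at 31.8 CPM per kb with COX6A2, its heart and muscle form, at 0 counts. COX6B1 was at 148 CPM per kb and COX6B2, its testis form, at 0.0253 CPM per kb. COX7A2 and COX7A2L were at 83.0 and 36.3 CPM per kb with COX7A1, the muscle form, at 0 counts. COX7B was at 39.6 CPM per kb with COX7B2 at 0 counts, and no count allows up to 3 counts per library (counting error only). In the second experiment COX6A2 and COX6B2 stood at or below the highest olfactory receptor level of the 6 libraries, as did COX6A2, COX6B2, COX7B2, NDUFA13, NDUFB8 and NDUFV2 in the third, so these values cannot be told from background reads.

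Levels differed between the experiments, and also between the repeats, which share a kit. Values here are normalized within an experiment, and kit, instrument and culture all differ between the first experiment and the repeats and cannot be told apart. Over the 58 genes with at least 1 CPM in the first experiment, the empty vector level in the second was 0.757-fold of that in the first at the median, with a range of 0.135-fold (COX8A) to 7.10-fold (COX7C), and UQCRHL, at 0.995 CPM in the first, was 15.3-fold. COX7C, a small membrane subunit, went from 134, 143 and 143 CPM to 997, 776 and 1203 CPM in the second, and its mean in the third was 317 CPM (2.27-fold of the first). NDUFS4, an accessory subunit of the complex I electron-input arm, went from 35.2, 37.3 and 39.2 CPM to 137, 111 and 166 CPM in the second, with a mean of 42.3 CPM in the third (1.14-fold). UQCRHL was 6.84-fold in the third, and the median over the 58 genes was 0.624-fold there. The order of the 66 levels per kb was nonetheless alike, with Spearman's rho of 0.873 between the first and second experiments, 0.906 between the first and the third and 0.934 between the second and the third, across genes, which are not independent replicates.

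The comparison of the lines in the first experiment, which asks whether ABCC1 overexpression goes with other transcript levels, gave small differences in subunit genes. Of the 62 members with enough counts to be tested, 8 were lower and 1 was higher in the ABCC1-overexpressing cells at the threshold used throughout, an adjusted p of at most 0.05 (edgeR, quasi-likelihood test, with Benjamini-Hochberg adjustment across every gene tested). RNA was taken from whole wells, so fewer cells of a type and less RNA per cell cannot be told apart. Among all 16995 Ensembl genes tested, 19.7% were lower and 17.9% were higher (37.6% in all), so 12.9% lower and 1.61% higher among the members was below the background share in both directions. The median log2FC of the members was −0.05, beside 0.01 for all genes tested. By complex, 6 of 36 complex I genes, 0 of 4 complex II genes, 1 of 9 complex III genes and 1 of 13 tested complex IV genes were lower. For complex II, edgeR gave 1 gene with an unadjusted p under 0.05 (SDHC, log2FC −0.15), and neither DESeq2 nor limma-voom called one. COX6A2, COX6B2, COX7A1 and COX7B2 had too few counts to test.

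NDUFS1 carries iron-sulfur clusters at the electron-input arm of complex I and is its largest core subunit. Its gene (ENSG00000023228) lies on chromosome 2 at 206979541 to 207024327, minus strand, in GRCh37. It had 160, 162 and 164 CPM in the control libraries and 132, 132 and 127 CPM with ABCC1. All 3 ABCC1 libraries were below all 3 empty vector libraries. The log2FC was −0.31 ± 0.04 (SE, n = 3 per line; adjusted p = 0.000115 by edgeR), a level that fell by 19.4%. Of the 7 core subunits encoded in the nucleus it was the only one past the threshold, and 6 of the 7 had a log2FC below 0.

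NDUFV3, an accessory subunit beside the NADH-binding core (ENSG00000160194, chromosome 21, 44299754 to 44333414, GRCh37), had 50.5, 46.2 and 50.2 CPM in the control libraries and 40.7, 40.6 and 39.0 CPM with ABCC1. The groups did not overlap, and the log2FC was −0.29 ± 0.05 (adjusted p = 0.0013 by edgeR). NDUFB1, a small membrane-arm subunit (ENSG00000183648, chromosome 14, 92582466 to 92588261), had 30.7, 32.1 and 31.6 CPM against 26.3, 27.0 and 24.4 CPM. It too was lower without overlap, with a log2FC of −0.28 ± 0.06 (adjusted p = 0.00289 by edgeR). NDUFB5 (ENSG00000136521, chromosome 3, 179322478 to 179345435), also of the membrane arm, had 60.8, 58.5 and 63.6 CPM against 53.6, 54.1 and 45.8 CPM, with the lowest value in ABCC1 replicate 3. Its log2FC was −0.26 ± 0.07 (adjusted p = 0.0116 by edgeR), and 35.2% of its exon bases are shared with another gene on the same strand.

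NDUFB4 and NDUFS6 were less even between empty vector libraries. NDUFB4, a membrane-arm subunit (ENSG00000065518, chromosome 3, 120315156 to 120321347), had 45.2, 32.2 and 35.9 CPM in the control libraries and 30.9, 30.3 and 30.7 CPM with ABCC1. Its log2FC was −0.31 ± 0.10 (adjusted p = 0.0429 by edgeR). NDUFS6, a zinc-binding accessory subunit (ENSG00000145494, chromosome 5, 1801514 to 1816719), had 91.9, 71.6 and 76.9 CPM against 67.0, 68.2 and 67.5 CPM, with a log2FC of −0.25 ± 0.08 (adjusted p = 0.0307 by edgeR). In both genes empty vector replicate 1 was the highest library, and neither passed the threshold without empty vector replicate 1 or 3, or without any 1 of the ABCC1 libraries. With 1 library left out the log2FC ran from −0.41 to −0.16 for NDUFB4 and from −0.32 to −0.14 for NDUFS6, with the values nearest 0 without empty vector replicate 1.

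Outside complex I, COX7A2L, which takes part in joining complexes III and IV into supercomplexes, had the clearest difference. The gene (ENSG00000115944, chromosome 2, 42560686 to 42652228) had 199, 204 and 206 CPM in the control libraries and 179, 175 and 158 CPM with ABCC1, without overlap. The log2FC was −0.25 ± 0.05 (adjusted p = 0.00281 by edgeR). Its paralog COX7A2 (log2FC 0.01) and the complex IV subunit COX7B (−0.14, adjusted p = 0.0576 by edgeR) did not pass the threshold. UQCRC1, a core subunit of complex III (ENSG00000010256, chromosome 3, 48636435 to 48648409), had 53.3, 57.7 and 55.9 CPM against 49.3, 50.7 and 51.2 CPM. The difference was small, with a log2FC of −0.14 ± 0.05 (adjusted p = 0.0376 by edgeR), and UQCRC1 was past the threshold in 7 of 17 other settings.

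COX4I2 was the only member past the threshold in the other direction. With 3, 2 and 4 counts among the controls it had 15, 9 and 18 with ABCC1 (0.0898 ± 0.0322 and 0.285 ± 0.0231 CPM). The gene lies on chromosome 20 at 30225691 to 30232809. It entered the test only through its ABCC1 libraries, so the call is given as a description, and DESeq2 did not call it (adjusted p = 0.0982). Its level in both lines was far below that of COX4I1 (log2FC 0.01 ± 0.04).

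**Figure D2:**
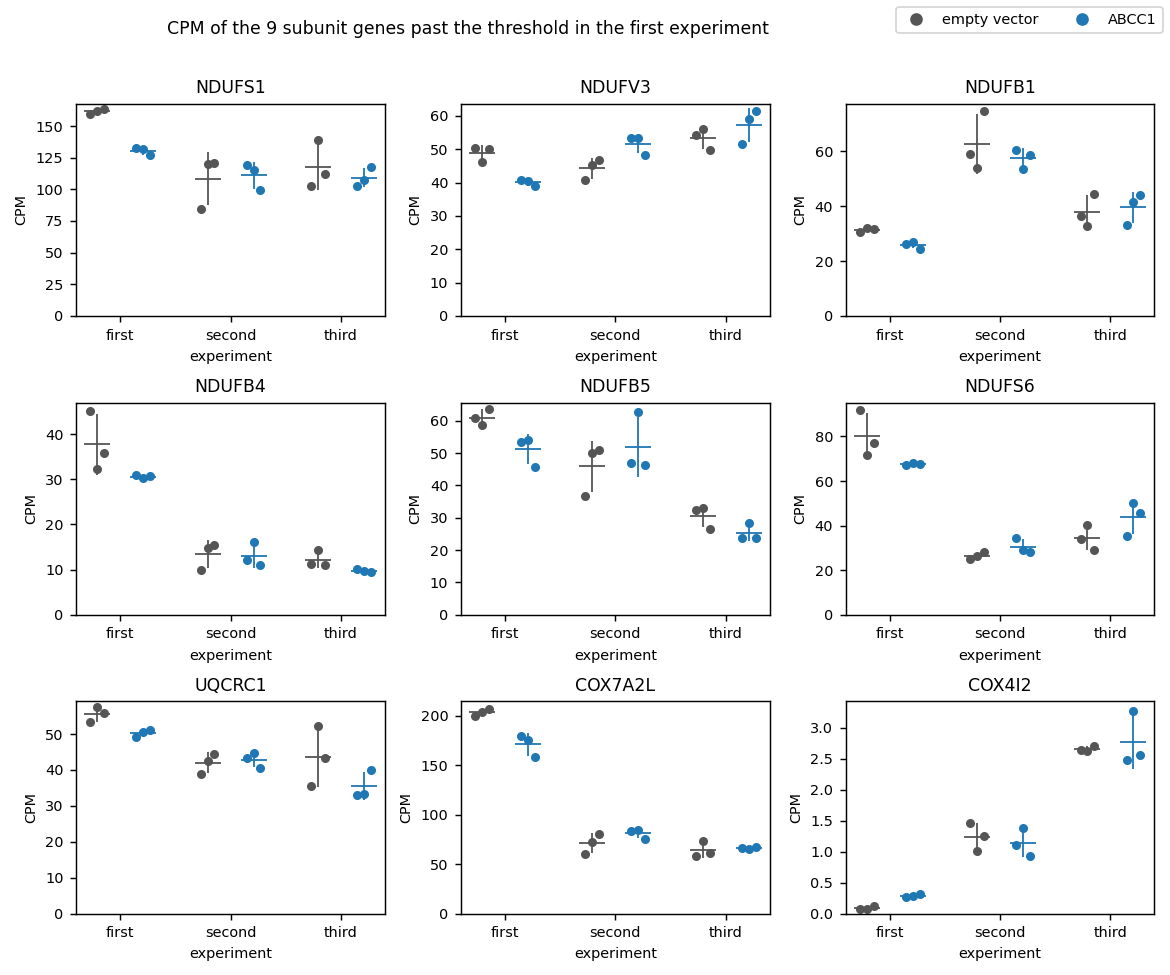
CPM of the 9 subunit genes past the threshold in the first experiment, for each library (points), with the mean and SD of 3 libraries (bars), by experiment and line. The 8 genes other than COX4I2 are lower in all 3 ABCC1 libraries of the first experiment, and in the repeats the lines overlap except for NDUFV3 and NDUFS6 in the second and NDUFB4 in the third.

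Promoters of the members were searched for 4 motifs known from genes of this chain or from promoters in general, on both strands, in the 250 bases before and 50 bases after the RefSeq start (GRCh38.p14). An entry was matched for 54 of the 66 members. GCATGCGC, the core of the site bound by NRF1, was found in 9 of the 54 (16.7%, beside 3.27% of all 27305 promoters and 4.26% of the 15842 of protein-coding genes). CCGGAAGT, a motif of ETS factors such as GABPA, was in 8 (14.8%, beside 4.435% and 6.19%). AAGATGGCG, a motif of YY1, was in 7 (12.96%, beside 1.85% and 2.74%), and TATAAA in 6 (11.1%, beside 11.95% and 9.63%). None of these motifs contains another. A match is a description of the letters only, and binding was not measured.

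Of the 7 members lower in the first experiment that have an entry, 4 held one of the first 3 motifs, beside 19 of all 54 members with an entry (35.2%). Their sites are shown because they belong to the members of that comparison. The NRF1 core of NDUFB4 lies within chr3:120596153-120596212 (plus strand) and that of NDUFS6 within chr5:1801335-1801394 (plus strand), read on the other strand. The core of NDUFA8, a member that was higher without overlap in each experiment, lies within chr9:122159748-122159807 (minus strand). The ETS motif of NDUFS1, within chr2:206159569-206159628 (minus strand), reads on the other strand. Each stretch is 60 bases long, and capitals mark the motif, which starts 157 bases before the RefSeq start in NDUFB4, 46 in NDUFS6, 2 in NDUFA8 and 158 in NDUFS1.
NDUFB4: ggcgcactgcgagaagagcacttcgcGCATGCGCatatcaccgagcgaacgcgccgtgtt
NDUFS6: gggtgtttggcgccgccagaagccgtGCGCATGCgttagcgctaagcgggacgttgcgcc
NDUFA8: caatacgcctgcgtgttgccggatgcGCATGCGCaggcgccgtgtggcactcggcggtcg
NDUFS1: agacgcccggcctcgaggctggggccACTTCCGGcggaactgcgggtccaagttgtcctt

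All 7 members with the YY1 motif had it in the same orientation, starting 11 to 26 bases after the RefSeq start. The motif holds the letters ATG, and whether these are the start codons of the genes was not tested. The stretch of UQCRC1 is at chr3:48609604-48609633 (minus strand), that of NDUFS7 at chr19:1383914-1383943 (plus strand) and that of NDUFS4 at chr5:53560650-53560679 (plus strand), and capitals mark the motif.
UQCRC1: ctgcagctggAAGATGGCGgcgtccgtggt
NDUFS7: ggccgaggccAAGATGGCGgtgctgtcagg
NDUFS4: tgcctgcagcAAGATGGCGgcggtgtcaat

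The 7 genes with this motif did not pass as 1 set. UQCRC1 was lower in the first experiment, whereas NDUFS7 had a log2FC of −0.19 ± 0.12, NDUFS4 of 0.07 ± 0.06, NDUFA6 of −0.08 ± 0.04, NDUFA7 of 0.51 ± 0.25, NDUFA9 of 0.08 ± 0.10 and SDHB of −0.04 ± 0.06, none past the threshold. The gene for YY1 itself was higher there (314 ± 14.4 to 358 ± 1.64 CPM, log2FC 0.19 ± 0.04, adjusted p = 0.00583 by edgeR), a gene named after its values were seen.

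The sum over each complex showed the same scale. Complex I genes summed to 2028, 1947 and 1990 CPM in the control libraries of the first experiment and to 1880, 1852 and 1880 CPM with ABCC1, a mean that fell by 5.92%. Complex IV genes summed to 1488, 1494 and 1503 CPM against 1431, 1430 and 1448 CPM, which fell by 3.94%. In both sums the lines did not overlap, while those of complex II (181 to 183 against 179 to 182 CPM) and complex III (789 to 827 against 730 to 805 CPM) did. The 13 mitochondrially encoded subunits summed to 18228 to 20077 CPM against 18244 to 23548 CPM, with ABCC1 replicate 3 the highest. In the repeats the direction of the sums depended on the scaling. With TMM factors, which CPM uses here, complex I was at 1892 ± 242 and 2036 ± 135 CPM without and with ABCC1 in the second experiment (7.60%) and at 1390 ± 166 and 1442 ± 144 CPM in the third (3.74%), and complex IV at 2231 ± 407 and 2364 ± 163 CPM (5.94%) and at 989 ± 96.2 and 1042 ± 104 CPM (5.30%). These 4 differences were each smaller than the larger of the SDs of the lines compared. Complex II was at 108 ± 6.64 and 131 ± 9.96 CPM in the second experiment (20.9%), a difference above both SDs that library totals cut to 4.82%, and at 143 ± 26.6 and 159 ± 10.6 CPM in the third (11.5%). Complex III was at 1152 ± 206 and 1231 ± 80.9 CPM (6.81%) and at 505 ± 82.3 and 542 ± 52.0 CPM (7.40%). With CPM from plain library totals, a scaling chosen here after the values were seen, complex I was at 2022 ± 104 and 1893 ± 36.1 in the second experiment and 1448 ± 46.9 and 1374 ± 33.5 in the third, and complex IV at 2383 ± 302 and 2198 ± 53.4 and at 1033 ± 53.2 and 992 ± 30.01. The sums of these complexes were then lower with ABCC1 by the mean in each repeat, as those of complex III were (1231 ± 147 and 1145 ± 39.8, and 525 ± 43.4 and 517 ± 17.9), while complex II was at 116 ± 4.93 and 122 ± 4.65 and at 148 ± 12.7 and 152 ± 2.46. In the first experiment complex I and complex IV were lower under both scalings.

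**Figure D3:**
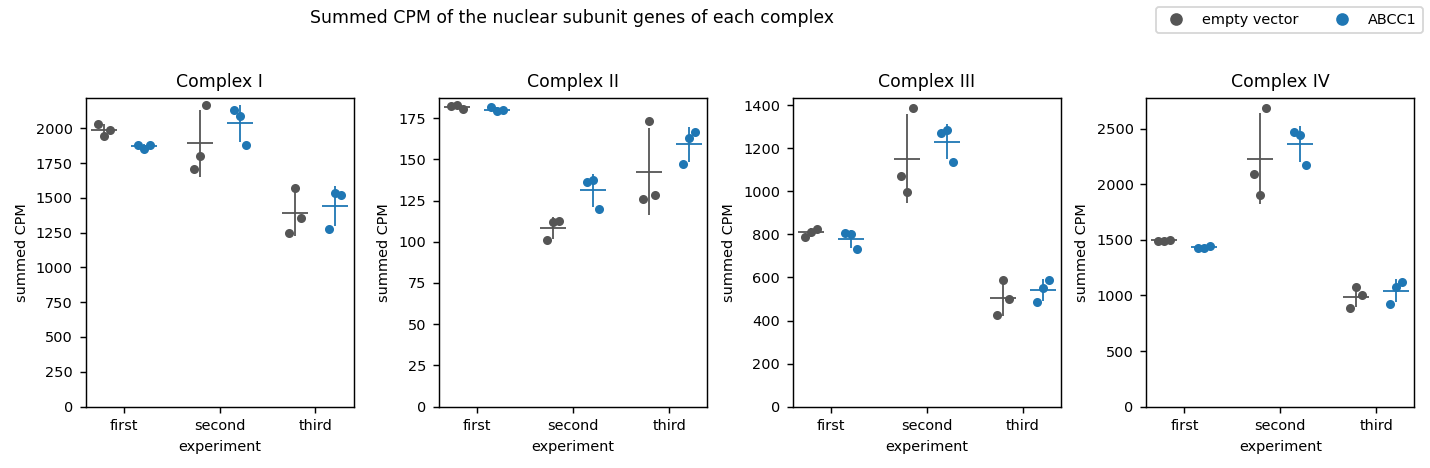
Summed CPM of the nuclear subunit genes of each complex, for each library (points), with the mean and SD of 3 libraries (bars), by experiment and line. Complex I and complex IV sums of the first experiment do not overlap between lines, at means of 1988 and 1871 CPM and of 1495 and 1436 CPM, and the repeats spread more widely.

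The precision of the first experiment bounded most members closely. The 95% interval of the log2FC lay within −0.5 to 0.5, less than 1.41-fold either way, for 54 of the 62 members (87.1%, beside 59.7% of all genes tested). The exceptions were COX4I2, NDUFA1, NDUFA13, NDUFA7, NDUFB4, NDUFV2, UQCR11 and UQCRHL, and only the intervals of COX4I2 and NDUFA7 reached beyond 2-fold. No member met an adjusted p of at most 0.001 together with an absolute log2FC of at least 1.5 in edgeR's test, which 2.11% of all genes did. NDUFS1 met the p and not the size. In total 15 members had an unadjusted p under 0.05 (24.2%, beside 46.6% of all genes), with 13 of them lower, and the libraries of the lines did not overlap for 13 members that were lower and 3 that were higher (20.97% and 4.84% of 62, beside 25.7% and 24.7% of all genes). Background reads moved with the lines here too, at 0.00410 to 0.00461 CPM per kb of olfactory receptor exon without and 0.00296 to 0.00368 with ABCC1. With that level as a covariate NDUFS1 was the only member called (5.21% of all genes were lower then), while the log2FC of the 8 stood at −0.46 to −0.12, with a median of −0.34 beside −0.27 without it. With 1 spread estimated in a fit of all 18 libraries, which also filtered and scaled them together, edgeR called none of the 9. In that fit 1.77% of all genes were lower, and the 8 stood at −0.21 to −0.04. ABCC1 replicate 3 stood apart from the other libraries of its line (chi-square per degree of freedom of 21.5 and 16.1, beside 1.49 between the other two), and without it edgeR called 13 of 61 members lower (21.3%, beside 23.8% of all genes). UQCRH was then the 1 member called higher, and NDUFB4, NDUFS6 and COX4I2 were not called.

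In the repeat experiments no member passed in edgeR's test. Of the 65 members tested in the second experiment, 0 were called by edgeR's quasi-likelihood test (1.70% of 34091 genes were, 1.25% higher and 0.458% lower), 9 had an unadjusted p under 0.05 (beside 21.2% of all), DESeq2 called 3 (beside 5.23% of all genes) and limma-voom 0 (beside 3.83%). In the third, 0 of 65 were called by edgeR (2.80% of 36509 genes were, 2.03% higher and 0.767% lower), 9 had an unadjusted p under 0.05 (beside 15.2% of all), DESeq2 called 3 (beside 2.90%) and limma-voom 1 (beside 2.85%). The stricter rule on p and size, which 0.0117% and 0.0356% of genes met by edgeR, was met by 0 members in both. The lines did not overlap for 15 members that were higher and 2 that were lower in the second experiment (beside 13.5% and 16.4% of all genes), and for 7 and 2 in the third (beside 8.59% and 10.9%). The median log2FC of the members was 0.18 in the second experiment and 0.06 in the third, beside −0.19 and −0.09 for all genes tested and 0.06 and −0.02 for protein-coding genes. With 1 library left out the median was 0.131 to 0.255 in the second and 0.0304 (without ABCC1 replicate 2) to 0.182 (without ABCC1 replicate 1) in the third. Those medians depend on scaling. With library totals in place of TMM factors, which shifts the median of all genes by −0.20 and −0.13, the members' medians were −0.0274 and −0.0756, and the calls over all genes were 0.0939% higher and 0.343% lower in the second experiment and 2.25% and 2.54% in the third. Background reads differed between the lines as well. The olfactory receptor level was 0.489 to 0.671 CPM per kb in the control libraries of the second experiment and 0.141 to 0.432 in its ABCC1 libraries, and 1.49 to 1.67 against 1.15 to 1.45 in the third. With that level as a covariate, a setting in which the members' medians were 0.08 and −0.18, edgeR called 0 members in both.

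**Figure D4:**
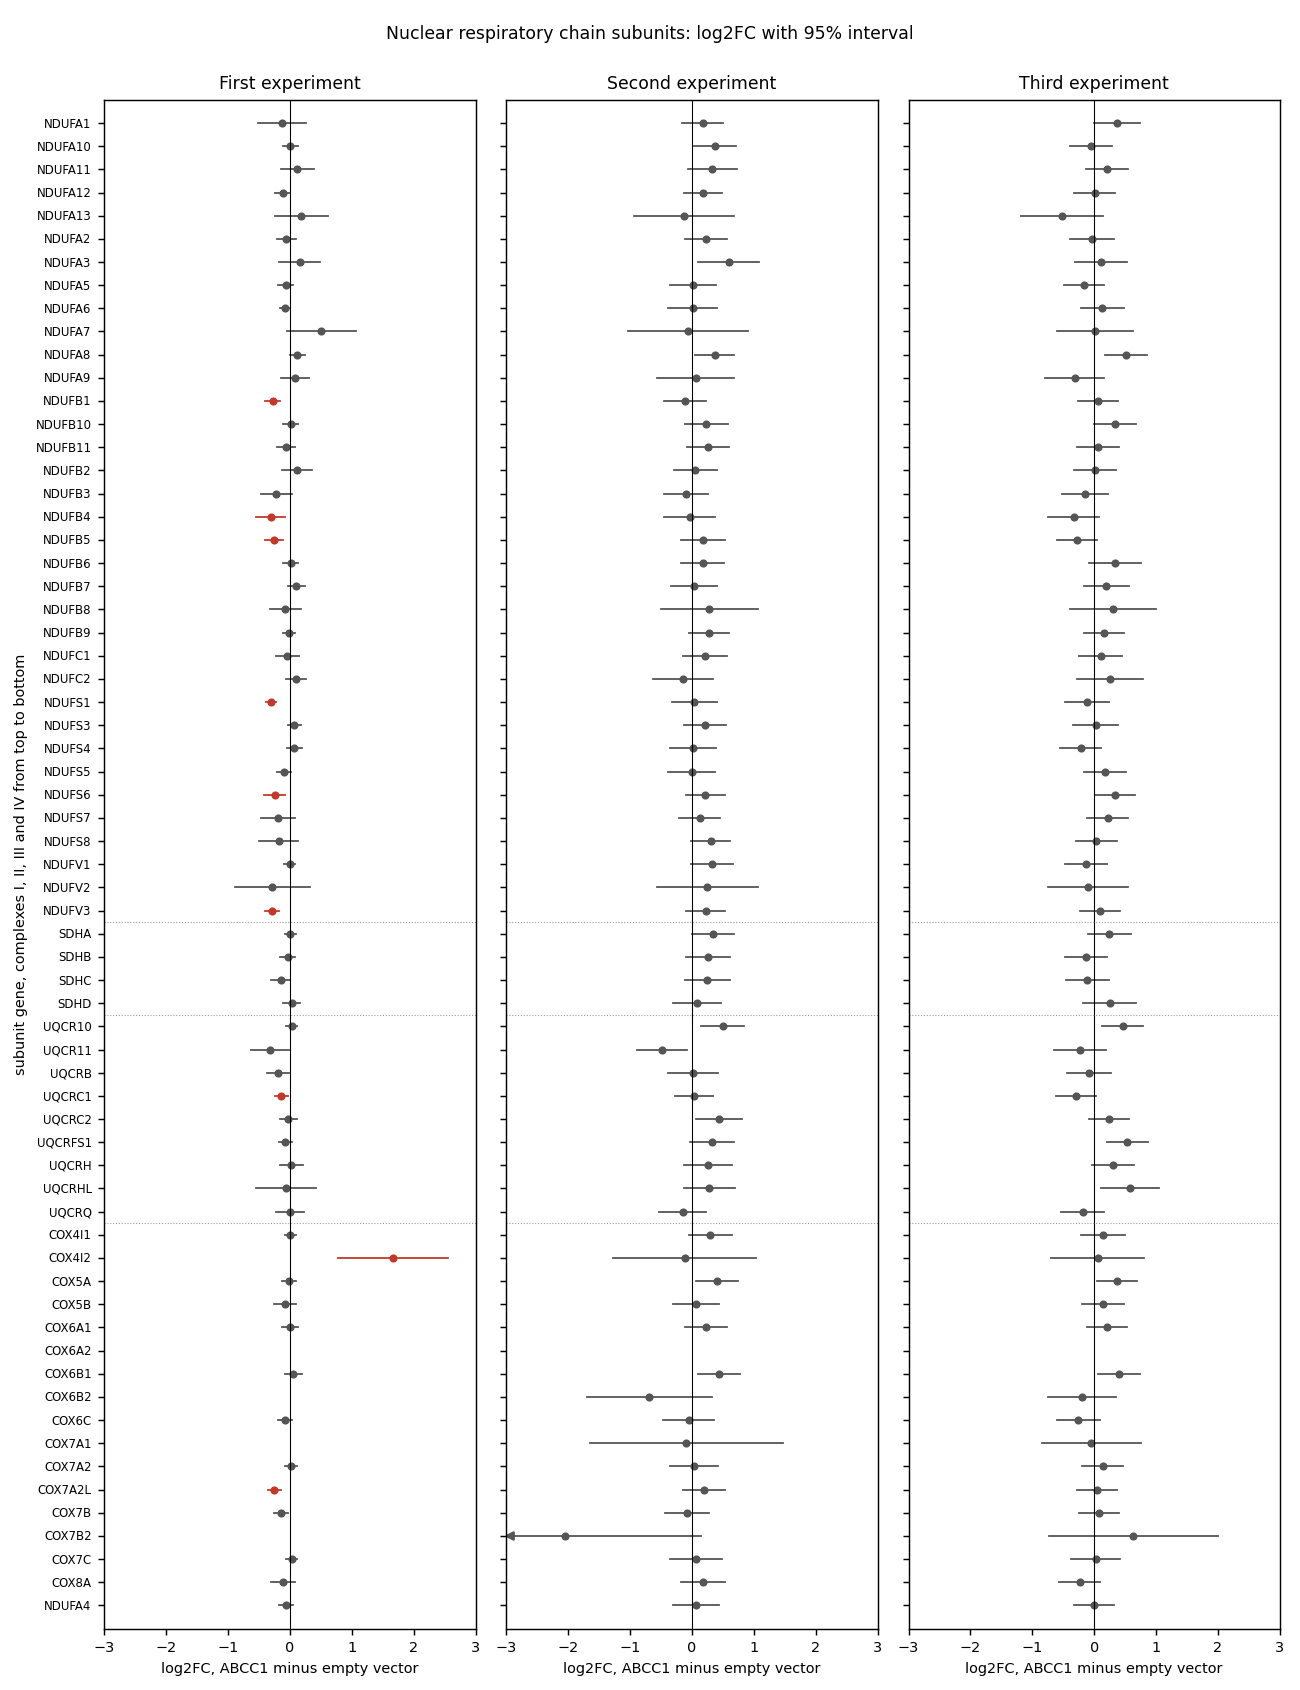
The log2FC (ABCC1 minus empty vector) of 65 of the 66 subunit genes, where tested, with its 95% interval, in 3 panels for the 3 experiments, with genes past the threshold in red and dotted lines between complexes. The intervals of the first experiment are narrow and 9 are red, while those of the second and the third are wider and none is red (an arrowhead marks an interval of COX7B2 that runs past the axis).

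UQCR11, a small subunit of complex III, had 13.4, 12.5 and 16.3 CPM in the second experiment without and 10.6, 11.5 and 8.03 CPM with ABCC1, lower without overlap (log2FC −0.49 ± 0.20, adjusted p = 0.158 by edgeR). It stood at −0.33 ± 0.14 in the first experiment and −0.23 ± 0.21 in the third (adjusted p = 0.0898 and 0.653 by edgeR). In the first it was past the threshold in 3 of 17 other settings, among them the replicate block (adjusted p = 0.036 by edgeR) and the fit without ABCC1 replicate 3 (log2FC −0.55). The 5 genes described next, and UQCR11, were chosen after their values were seen, the 5 as those that DESeq2 called in a repeat, all with a log2FC above 0. UQCRFS1, the Rieske iron-sulfur protein of complex III, had 47.6, 65.8 and 52.7 CPM in the control libraries of the third experiment and 73.8, 81.4 and 85.8 CPM with ABCC1, without overlap. Its log2FC was 0.54 ± 0.17 (adjusted p = 0.0613 by edgeR; 0.00856 by DESeq2), and in the first and second experiments it was −0.07 ± 0.05 and 0.32 ± 0.17. It was past the threshold in 10 of 17 other settings of the third experiment, over which its log2FC ran from 0.24 to 0.69.

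NDUFA8, an accessory subunit of complex I that faces the intermembrane space, did not overlap between lines in any experiment. It had 42.3, 45.5 and 44.0 CPM against 45.6, 47.9 and 49.8 CPM in the first experiment, 20.2, 25.3 and 26.6 CPM against 32.4, 29.6 and 30.8 CPM in the second, and 14.9, 18.1 and 16.5 CPM against 20.9, 22.5 and 27.5 CPM in the third. Every ABCC1 library was thus above every empty vector library of its own experiment. The log2FC was 0.12 ± 0.05, 0.36 ± 0.16 and 0.52 ± 0.17, with adjusted p of 0.0954, 0.183 and 0.0763 by edgeR, so it missed the threshold each time in that test. In the third experiment DESeq2 gave an adjusted p of 0.0344, and NDUFA8 was past the threshold in 9 of 17 other settings. Over the 17 its log2FC ran from 0.20 to 0.67 there, and from 0.17 to 0.50 in the second experiment.

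UQCR10, a small complex III subunit, had 35.4, 42.2 and 49.4 CPM in the control libraries of the second experiment and 53.3, 56.9 and 68.7 CPM with ABCC1. The log2FC was 0.50 ± 0.17 there and 0.46 ± 0.17 in the third experiment (adjusted p = 0.107 and 0.123 by edgeR), beside 0.03 ± 0.04 in the first. With the background covariate its value in the third turned to −0.18, and it was past the threshold in 6 of 17 other settings there and in 2 of 17 in the second. COX6B1, which faces the intermembrane space in complex IV, had 69.3, 76.1 and 84.0 CPM against 105, 110 and 95.5 CPM in the second experiment, with log2FC of 0.44 ± 0.16 there and 0.40 ± 0.17 in the third (adjusted p = 0.139 and 0.21 by edgeR). Over 17 other settings the log2FC of COX6B1 ran from 0.23 to 0.57 in the second experiment and from 0.12 to 0.57 in the third. NDUFA3, a membrane subunit of complex I, had 6.72, 6.79 and 5.63 CPM against 11.7, 8.02 and 9.16 CPM in the second experiment, with a log2FC of 0.59 ± 0.24 (adjusted p = 0.16 by edgeR). The lower bound of the interval of each of these genes, in the experiment in which DESeq2 called it, was under 1.41-fold.

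The 8 members that were lower in the first experiment had values on both sides of 0 in the repeats, and how many were below depended on the scaling. In the second experiment 2 had a log2FC below 0 and 6 above, with a range of −0.12 to 0.22, and in the third 4 were below and 4 above, with a range of −0.33 to 0.34. With library totals in place of TMM factors, 6 were below 0 and 2 above in the second experiment (median −0.0911) and 7 below and 1 above in the third (median −0.159), where UQCRC1 passed the threshold as lower (log2FC −0.42, adjusted p = 0.0326 by edgeR). With the background covariate all 8 were below 0 in the third experiment, and 0 were called. NDUFS1 was at 0.04 ± 0.18 and −0.11 ± 0.18, and NDUFS6 at 0.21 ± 0.15 and 0.34 ± 0.16. For NDUFS6 the value in the third turned to −0.19 with the background covariate, and it was past the threshold as higher without empty vector replicate 2 (0.48) or ABCC1 replicate 1 (0.52). The 95% interval of the second experiment held the first value for 4 of the 8 and not for COX7A2L, NDUFB5, NDUFS6 and NDUFV3, and that of the third held it for 5 and not for NDUFB1, NDUFS6 and NDUFV3. In the third experiment NDUFB5 was at −0.27 ± 0.16 and NDUFB4 at −0.33 ± 0.21, the latter without overlap between lines (11.3, 14.4 and 10.9 against 10.2, 9.62 and 9.41 CPM; adjusted p = 0.475 by edgeR).

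Whether the effect differed between experiments was tested in a joint fit of the 18 libraries. In edgeR this fit uses 1 spread per gene over both kits, though replicates varied less in the first experiment. An absence of calls in it therefore cannot show that the effects were alike. Of the 66 members 0 were called by edgeR's test of the difference (1.19% of 46225 genes were), 4 had an unadjusted p under 0.05 (beside 9.04% of all), limma-voom called 0 (beside 0.392%) and DESeq2 called 1, NDUFV3, a share of members near that of all genes (1.59%). The 4 were COX4I2, COX7B2, NDUFS6 and UQCRFS1, each with an adjusted p of at least 0.509 by edgeR. In the second and the third experiments 21 and 25 of 65 intervals lay inside −0.5 to 0.5 (32.3% and 38.5%, beside 87.1% in the first) and 57 and 61 inside −1 to 1 (87.7% and 93.8%, beside 96.8%). Over the members, Pearson's r of the log2FC was −0.05 between the first and second experiments (62 genes), 0.10 between the first and the third (62 genes) and 0.07 between the second and the third (65 genes), as a description across genes that share their libraries. Spearman's rho was 0.15, 0.26 and 0.42 for the same pairs. Pearson's r over protein-coding genes tested was 0.37, 0.28 and 0.55.

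The rest of the respiratory chain machinery was read from lists of related genes in the same fits. Of the nuclear genes of ATP synthase, the chain's partner in making ATP, 1 of 18 was lower in the first experiment (beside 19.7% of all genes), ATP5MK (57.3 ± 2.24 to 45.7 ± 5.49 CPM, log2FC −0.33 ± 0.08, adjusted p = 0.00914 by edgeR), and the median log2FC was −0.05. In the second and the third experiments edgeR called 0 of the 18 (beside 1.70% and 2.80% of all genes), and 3 and 3 had an unadjusted p under 0.05 (beside 21.2% and 15.2%). DESeq2 called 3 and 1 (beside 5.23% and 2.90%), and limma-voom called 1 and 0 (beside 3.83% and 2.85%). Of the 13 mitochondrially encoded subunits 2 were higher in the first experiment (beside 17.9% of all genes), MT-ND1 (784 ± 27.9 to 1078 ± 170 CPM, log2FC 0.46 ± 0.09, adjusted p = 0.00457 by edgeR) and MT-ND2 (2768 ± 71.2 to 3698 ± 688 CPM, log2FC 0.42 ± 0.11, adjusted p = 0.0147 by edgeR), both membrane subunits of complex I. The 13 summed to 18244, 19428 and 23548 CPM in ABCC1 replicates 1 to 3 there. The part of replicate 3 in both calls was not tested. In the repeats edgeR called 0 of these 13, with 4 and 1 at an unadjusted p under 0.05 (beside 21.2% and 15.2% of all genes). DESeq2 called 4 and 2 of them (beside 5.23% and 2.90%) and limma-voom 0 and 0 (beside 3.83% and 2.85%). Median log2FC of this list was 0.02, 0.06 and −0.12 in the first, second and the third experiments. With library totals the medians of the repeats were −0.14 and −0.24, and edgeR called 2 of the 13 lower in the third (beside 2.54% of all genes).

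Complex IV assembly factors, which insert haem and copper and stabilize the enzyme, had calls in each experiment. Of 23 genes, 4 were higher and 3 lower in the first experiment, 2 were higher in the second and 3 in the third, and the medians were 0.05, 0.31 and 0.34. Of all genes tested 17.9% were higher and 19.7% lower in the first experiment, and 1.25% and 2.03% were higher in the second and the third. COX10, the first enzyme of haem A synthesis, was higher in the first experiment (28.6 ± 0.753 to 35.2 ± 1.87 CPM, log2FC 0.30 ± 0.06, adjusted p = 0.00186 by edgeR) and the third (10.3 ± 1.14 to 19.7 ± 1.25 CPM, log2FC 0.93 ± 0.19, adjusted p = 0.000515 by edgeR), and stood at 0.63 ± 0.19 in the second (adjusted p = 0.0759 by edgeR). COA7 had log2FC of 0.36 ± 0.06, 0.58 ± 0.17 and 0.85 ± 0.17, and COA6, a copper-handling protein, 0.29 ± 0.06, 0.44 ± 0.16 and 0.75 ± 0.16. Both passed in the first and the third experiments and not in the second (adjusted p = 0.0706 and 0.137 by edgeR). COX15, the next enzyme of haem A synthesis, passed in the second alone (log2FC 0.66 ± 0.17, adjusted p = 0.042 by edgeR). CMC1, which takes part in early assembly and was chosen after its values were seen, went the other way, lower in the first experiment (5.91 ± 0.478 to 4.02 ± 0.661 CPM, log2FC −0.59 ± 0.12, adjusted p = 0.00381 by edgeR), with −0.01 ± 0.22 in the second and −0.59 ± 0.20 in the third (adjusted p = 0.982 and 0.0867 by edgeR). With library totals the medians of the list were 0.116 and 0.214 in the repeats, and edgeR called 0 in the second and 3 higher and 1 lower in the third.

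Assembly factors of the other complexes were split. Of 15 for complex I, 4 were lower in the first experiment (beside 19.7% of all genes), among them ACAD9 (log2FC −0.31 ± 0.06) and NDUFAF7 (−0.30 ± 0.08), while NUBPL was higher in the second (0.69 ± 0.18, adjusted p = 0.0497 by edgeR; not called with library totals) and NDUFAF4 in the third (0.82 ± 0.17, adjusted p = 0.000646 by edgeR). By edgeR 1.25% and 2.03% of all genes were higher in the second and the third. DESeq2 called 3 of the 15 in each of the first and second experiments (beside 14.7% and 5.23% of all genes) and 1 in the third (beside 2.90%). Of 10 for complexes II and III, SDHAF1, which helps insert iron-sulfur clusters into SDHB, was lower in the first experiment (12.9 ± 0.249 to 7.0025 ± 0.491 CPM, log2FC −0.88 ± 0.08) and in the third (15.6 ± 2.55 to 8.86 ± 1.72 CPM, log2FC −0.815 ± 0.204), with −0.55 ± 0.22 in the second (adjusted p = 0.154 by edgeR). BCS1L, which inserts the Rieske protein into complex III, was higher in the first (log2FC 0.17 ± 0.05) and UQCC3 in the third (0.58 ± 0.17; not called with library totals). Of all genes 17.9% were higher and 19.7% lower in the first experiment, and 2.03% and 0.767% in the third. In the second experiment edgeR called 0 of these 10 (beside 1.70% of all genes), and 4 had an unadjusted p under 0.05 (beside 21.2%). DESeq2 called 2 there (beside 5.23%) and limma-voom 0 (beside 3.83%).

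Among genes that neighbour the members in function and were outside their symbols, HIGD1A, which associates with complex IV, was lower in the first experiment (30.3 ± 0.916 to 22.7 ± 2.51 CPM, log2FC −0.42 ± 0.08) and the third (22.3 ± 1.38 to 11.8 ± 2.10 CPM, log2FC −0.92 ± 0.18). NDUFA4L2, a relative of NDUFA4, was lower in the first experiment (log2FC −0.37 ± 0.11). These were 2 of 6 neighbours tested in the first experiment and 1 of 7 in the third, beside 19.7% and 0.767% of all genes lower. In the second experiment edgeR, DESeq2 and limma-voom called 0 of the 6 neighbours tested (beside 1.70%, 5.23% and 3.83% of all genes). There 0 had an unadjusted p under 0.05 (beside 21.2%).

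Regulators of mitochondrial biogenesis had 5 of 13 genes higher and 3 lower in the first experiment, 1 higher in the second and 3 higher in the third, beside 17.9% higher and 19.7% lower, 1.25% higher and 2.03% higher among all genes. PPRC1, a coactivator that acts with NRF1, was higher in all 3 experiments, at 237 ± 8.15 to 322 ± 18.5 CPM, 81.2 ± 10.7 to 138 ± 22.0 CPM and 113 ± 16.99 to 211 ± 20.8 CPM. Its log2FC was 0.44 ± 0.05, 0.76 ± 0.18 and 0.90 ± 0.19, with adjusted p of 6.25e-05, 0.0306 and 0.00103 by edgeR. With library totals edgeR called 0 of the 13 in the second experiment, PPRC1 included, and 4 higher and 1 lower in the third. TFB2M, a transcription factor of mitochondrial DNA, was higher in the first and the third experiments (0.25 ± 0.06 and 0.68 ± 0.17), GABPA, a factor of the ETS family, in the third (0.63 ± 0.17) and TFB1M in the first (0.42 ± 0.09).

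**Figure D5:**
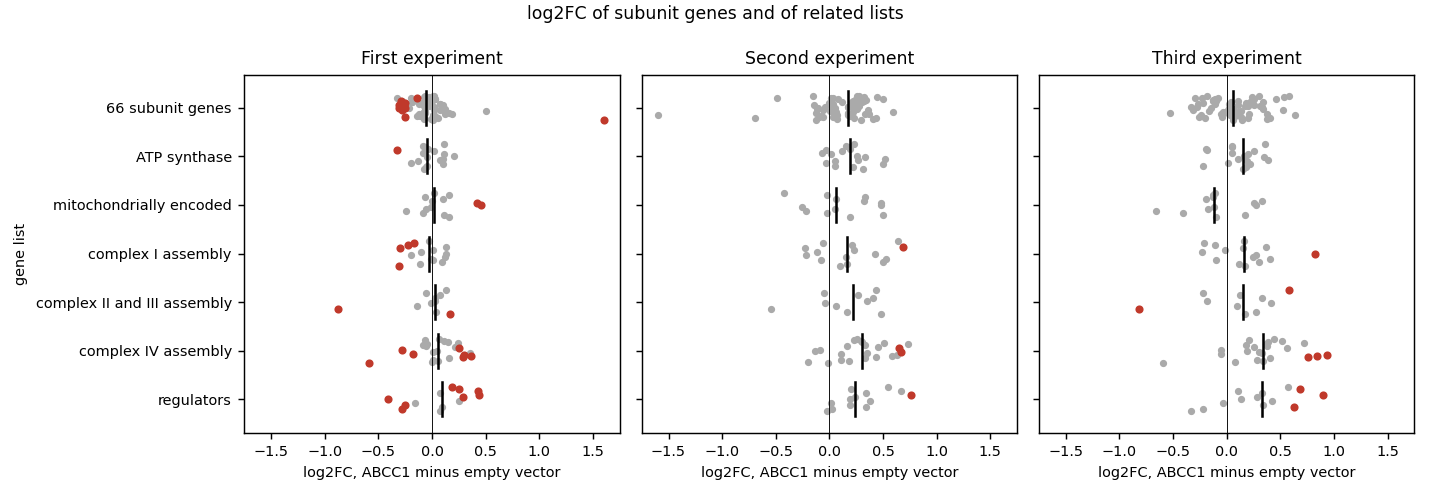
The log2FC (ABCC1 minus empty vector) of each gene tested in the subunit list and in 6 related lists, by experiment, with genes past the threshold in red and a black bar at the list's median. The subunit points in the first experiment centre on −0.05 with 8 red points at −0.31 to −0.14, and the complex IV assembly list centres on 0.31 and 0.34 in the second and the third (1 subunit value above 1.6 and 1 below −1.6 are drawn at the edge).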

How the data were processed

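Per the labels and the paper, the authors made reads with bcl2fastq 2.18, aligned them with STAR 2.7.3a to GRCh37 with vector and spike-in sequences, and counted read pairs on Ensembl exons with featureCounts (Subread 2.0.0). The deposited counts are whole numbers per gene, not normalized. Strand was not used, and multi-mapping or ambiguous pairs were not counted. The files hold 57905 Ensembl genes, 92 spike-in rows and 6 vector rows. For the first experiment the labels name 2 kits, and the one in the sample characteristics and the paper was taken.

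Gene types came from GENCODE v29 by Ensembl ID (52338 matched) and symbols from a table of gene names (51996 matched). Each experiment was fitted with edgeR 4.0.16 in R 4.3.3 (filterByExpr at a minimum count of 10, TMM, robust quasi-likelihood test, two-sided), with p-values adjusted over all features tested, and a gene was called at an adjusted p of at most 0.05. The difference between experiments was tested as an interaction in a fit of all 18 libraries. CPM uses TMM-scaled totals, SE is the log2FC over the root of F, and intervals are at 95%. Alternatives used DESeq2 1.42.0, limma-voom (limma 3.58.1), other scaling, filters, covariates and left-out libraries. Depth was 8866994 to 57937653 assigned pairs per library, and intervals cover the spread between these libraries. Pairs of libraries of a group differed by 1.49 to 22.7 in chi-square per degree of freedom, and none was counted as a duplicate. The lowest was ABCC1 replicates 1 and 2 of the first experiment, from which replicate 3 differed by 21.5 and 16.1. Scripts were tested on simulated data.

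The members and gene lists were chosen with earlier results of these data known. Genes named with values were called members, isoform pairs, the highest and lowest member of each complex, and up to 4 called genes of each related list with the largest change. Exceptions are marked in the text. The NRF1 and YY1 motifs are shorter cores, taken after longer forms had been searched in the same promoters. The level of 1 marker gene and the values of 1 member are not reported here.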

Additional observations from a re-analysis of the deposited data

How the results depend on the processing

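The limits of these values are the 3 libraries per line, the kit difference between experiments, and background reads in the repeats. In the first experiment the members called higher numbered 0 with DESeq2, where each library had to hold 10 counts, with a spread shared across the 18 libraries and with the background covariate, in place of 1. The shared spread came from a joint fit, which also filtered and scaled the 18 libraries together, and these parts were not separated. The members called lower numbered 0 with the shared spread, and 1 (NDUFS1) with the background covariate, in place of 8, beside 1.77% and 5.21% of all genes called lower in those fits. The log2FC of the 8 was −0.21 to −0.04 with the shared spread and −0.46 to −0.12 with the covariate, in place of −0.31 to −0.14. Leaving out 1 library gave 4 to 13 lower, with 4 without empty vector replicate 3 (beside 14.4% of all genes) and 13 without ABCC1 replicate 3 (beside 23.8%), and 0 to 1 higher (0 without empty vector replicate 1 or ABCC1 replicate 1). The members' median log2FC was −0.0315 without the filter on low counts, −0.0316 with the covariate and 0.0497 with the shared spread, in place of −0.05.

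In the second experiment DESeq2 and the shared spread each called 3 members higher in place of 0 (4.55% of members, beside 4.55% and 4.56% of all genes). The median was 0.32 with DESeq2, −0.0274 with library totals and 0.0360 with protein-coding genes only, in place of 0.18.

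In the third experiment the members called higher, 0 in the reported fit, numbered 3 with DESeq2 (beside 2.64% of all genes), 1 with limma-voom (2.16%), 1 with RLE size factors (2.65%), 1 with library totals (2.25%), 3 where each library had to hold 10 counts (4.99%), 3 with the replicate block (3.68%), 2 with the shared spread (2.84%), and 4 each with protein-coding genes only (7.71%) and with the length trend removed (2.31%). Library totals also gave 3 lower (beside 2.54%). Leaving out 1 library gave 0 to 8, with 8 without empty vector replicate 2 (12.1% of 66 members, beside 5.99% of all genes) and 5 without ABCC1 replicate 1 (7.58%, beside 3.87%). The median was −0.0756 with library totals and −0.18 with the background covariate, in place of 0.06. DESeq2 called 1 member for a difference between experiments, in place of 0. For these shifts the cause was not tested.

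The labels number replicates 1 to 3 within a line and do not say what a number shares. The paper plated both lines weekly, so same-numbered libraries may share a week. Deviations of same-numbered libraries had mean correlations of −0.05, −0.06 and 0.04 in the first, second and the third experiments. With 3 libraries per line such values cannot decide whether a week was shared, and the reported fits did not pair the libraries. A fit with the replicate block called 1 member higher and 8 lower in the first experiment, 0 and 0 in the second, and 3 higher and 0 lower in the third (NDUFA8, UQCR10 and UQCRFS1). In the first experiment the block lost the call of UQCRC1 and gained UQCR11.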
